A study of Mus musculus with 6 samples.

Results

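The regions described here are Gli3 ChIP-seq peaks of the embryonic mouse face that had no counterpart among the Gli3 peaks of the mandibular prominence (MNP) but did share sequence with a Hand2 peak of the MNP. Members were chosen by position alone: a peak of the Gli3 whole face list was selected on sharing 0 bp with every Gli3 MNP peak and 1 bp or more with a peak of the Hand2 MNP list. The rule selected 1475 of the 5752 whole face peaks (25.6%), called face-only Gli3 peaks with Hand2. They were compared with 2115 face-only Gli3 peaks without Hand2 (36.8%) and with 1261 Gli3 peaks of face and MNP with Hand2 (21.9%). The other 901 whole face peaks (15.7%) were Gli3 peaks of face and MNP without Hand2. Because overlap chose the members, their widths, overlaps and distances to Hand2 and Gli3 MNP peaks are given as descriptions. Tests were run on sequence content and on distance to genes, which the rule did not read. The lists that it used have motif and promoter shares of their own, so these tests are not independent of how members were chosen.

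The peaks came from CD1 mouse embryos in which *Gli3* or *Hand2* carries a Flag tag, so that the anti-FLAG M2 antibody served both transcription factors (TFs). The labels give the tag as 3XFlagbio for both genes, whereas the study's methods list the Hand2 allele as 3xFlag. The 3 groups were Gli3 3XFlagbio whole face, Gli3 3XFlagbio mandibular prominence and Hand2 3XFlagbio mandibular prominence, each with 2 replicates of pooled embryonic tissue. The labels give embryonic day 11.5 for every sample and the series text gives E10.5. The study made its mock control from untagged wild-type embryos. Each group was deposited as 1 list of merged peak positions without heights, q-values or reads, so the depth behind a peak is unknown, and no value below has an error between replicates. The tests count peaks, which are not replicates of embryos, and the intervals (95% Wilson for shares, Newcombe for differences) cover counting error only. The tissues hold several cell types, and a peak list cannot tell few cells with strong binding from many cells with weak binding. The study's whole face took in the mandibular prominence beside the frontonasal and maxillary ones, and it was not divided further. Face-only therefore means only that no peak of the Gli3 MNP list overlaps, and does not place the binding outside the MNP. A member is a place bound by Gli3 somewhere in the face, which may be the MNP, and by Hand2 in the MNP. The lists do not show both factors in the same cells.

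Gli3 is a zinc finger TF through which cells read Hedgehog signals, and it can act as an activator or, after proteolytic processing, as a repressor. It recognises the canonical Gli-binding motif GACCACCC (cGBM), and the divergent form GACCTCCC (dGBM) differs from it by the substitution A5T, counted from the 5′ end of the motif. Hand2 is a basic helix-loop-helix TF of the distal mandibular mesenchyme that binds E-boxes as a dimer, with CAGATG as a preferred form. The MNP gives rise to the lower jaw and much of the tongue, and most of its mesenchyme derives from neural crest cells.

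Sequences of 10 members are shown to make the motifs visible in place. Letters are in lower case, with each motif named for the set in capitals, read 5′ to 3′ on the plus strand of mm10, and with up to 25 bp on either side. Members on 1 chromosome and those with UTR sequence in the window were passed over, and not every region is printed, so smallest gaps and first positions are those among the remaining members. A motif on the opposite strand reads GGGTGGTC for the cGBM, GGGAGGTC for the dGBM and CATCTG for the E-box. The first 4 regions hold a cGBM and a CAGATG E-box at the smallest gaps, out of 25 members with both motifs in all, and those gaps were 1, 3, 3 and 6 bp.
Med13l to Tbx3, chr5:119472508-119472563: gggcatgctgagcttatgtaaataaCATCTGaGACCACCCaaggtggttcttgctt
Tex29 to A230072I06Rik, chr8:11914986-11915052: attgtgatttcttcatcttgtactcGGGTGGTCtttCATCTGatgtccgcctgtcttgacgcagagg
Mapt to Kansl1, chr11:104320553-104320619: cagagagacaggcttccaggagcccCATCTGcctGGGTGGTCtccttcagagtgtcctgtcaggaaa
Epb41l2 to Smlr1, chr10:25411972-25412041: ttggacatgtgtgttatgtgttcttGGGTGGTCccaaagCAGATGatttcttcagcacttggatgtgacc
The region between *Med13l* and *Tbx3* was intergenic, 198205 bp from the transcription start site (TSS) of *Tbx3*, which encodes a T-box TF of the mandibular mesenchyme. The region beside *Tex29* was also intergenic, and the other two lay in introns of *Mapt* and *Epb41l2*.

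The next 2 regions hold a dGBM and a CAGATG E-box but no cGBM, at gaps of 4 and 18 bp, out of 14 such members in all.
Cald1 to Agbl3, chr6:34717404-34717471: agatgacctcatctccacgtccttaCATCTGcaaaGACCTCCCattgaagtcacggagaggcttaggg
Hacd2 to Adcy5, chr16:35140342-35140423: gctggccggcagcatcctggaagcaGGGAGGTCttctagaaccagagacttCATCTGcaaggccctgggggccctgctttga
The first of these lay in an intron of *Cald1*, a gene for an actin-binding protein, and the other was intergenic. No member held more than 1 cGBM in its middle 200 bp (0 of 1475, upper limit of the interval 0.260%), so the regions meant to show several copies are the first by genome position among the members with 1.
Rdh10 to Stau2, chr1:16136905-16136962: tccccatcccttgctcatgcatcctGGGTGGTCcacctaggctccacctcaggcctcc
Cdk15 to Fzd7, chr1:59376136-59376193: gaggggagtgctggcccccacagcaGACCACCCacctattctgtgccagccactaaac
Both were intergenic and had no CAGATG in the middle 200 bp. The last 2 regions hold CAGATG beside TAATTA, the core bound by homeodomain TFs such as Dlx, Msx, Alx and Prrx, at gaps of 0 and 4 bp.
Parva to Tead1, chr7:112510438-112510499: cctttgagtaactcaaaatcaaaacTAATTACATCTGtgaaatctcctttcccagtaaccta
Minos1 to Capzb, chr4:139144788-139144853: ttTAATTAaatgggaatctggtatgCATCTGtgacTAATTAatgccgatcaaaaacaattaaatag
The region in an intron of *Parva* had the E-box directly after the homeodomain core, and the intergenic region near *Minos1* had a core on either side of its E-box.

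Like the other whole face peaks, members were narrow, with a median width of 224 bp (range 200 to 903 bp). The median was 223 bp in face-only peaks without Hand2, 221 bp in shared peaks with Hand2 and 220 bp in shared peaks without Hand2. Hand2 peaks covered most members completely: 1084 of 1475 (73.5%) lay wholly inside a Hand2 peak, 1357 (92.0%) were covered over at least 50% of their length and 4 touched 2 Hand2 peaks. The midpoints of a member and its Hand2 peak were a median of 100 bp apart (quartiles 49 and 191 bp). The Hand2 peaks that members touched were 1470 of 59583 (2.47%), and their median width was 643.5 bp, compared to 447 bp for all other Hand2 peaks. At the threshold, the members with the smallest overlaps shared 1, 2 and 5 bp with a Hand2 peak, and the closest face-only peaks without Hand2 ended 2, 3 and 6 bp from one. The nearest Gli3 MNP peak was a median of 102193 bp away from a member, with 56 members (3.80%) within 1 kb of one and the closest at 14 bp.

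Most members lay away from TSSs. Their midpoints lay in intergenic sequence in 770 cases (52.2%), in introns in 610 (41.4%), in UTRs in 75 (5.08%) and in coding exons in 20 (1.36%). The median distance to the nearest protein-coding TSS was 48136 bp, compared to 38612 bp for face-only peaks without Hand2 and 21933 bp for shared peaks with Hand2. Promoter members, those with a protein-coding TSS no more than 1 kb from their midpoint, numbered 187 (12.7%, interval 11.1 to 14.5%). The share was 28.9% among shared peaks with Hand2 (365 peaks), a difference of -16.3 percentage points (interval -19.3 to -13.2; Fisher's exact test, two-sided, q = 7.4e-26 by Benjamini-Hochberg over 2 tests). The Gli3 MNP list, which the rule used, was itself rich in promoters: 56.5% of its peaks lay within 1 kb of a TSS, compared to 18.8% of the whole face peaks, so this difference is not independent of how members were chosen. Against face-only peaks without Hand2 (257 peaks, 12.2%) the difference was 0.53 points (interval -1.64 to 2.76, q = 0.64). That small difference turned negative and passed the threshold where Hand2 had to cover at least 50% of the Gli3 peak (10.8% of members, 13.3% of the others, q = 0.024) or to hold its midpoint (10.7% and 13.4%, q = 0.019), and where a promoter reached to 5 kb (18.6% and 21.5%, q = 0.039). The plot of TSS distances shows that the largest bin of members, 665 peaks (45.1%), lay between 10 and 100 kb from a TSS.

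**Figure D1:**
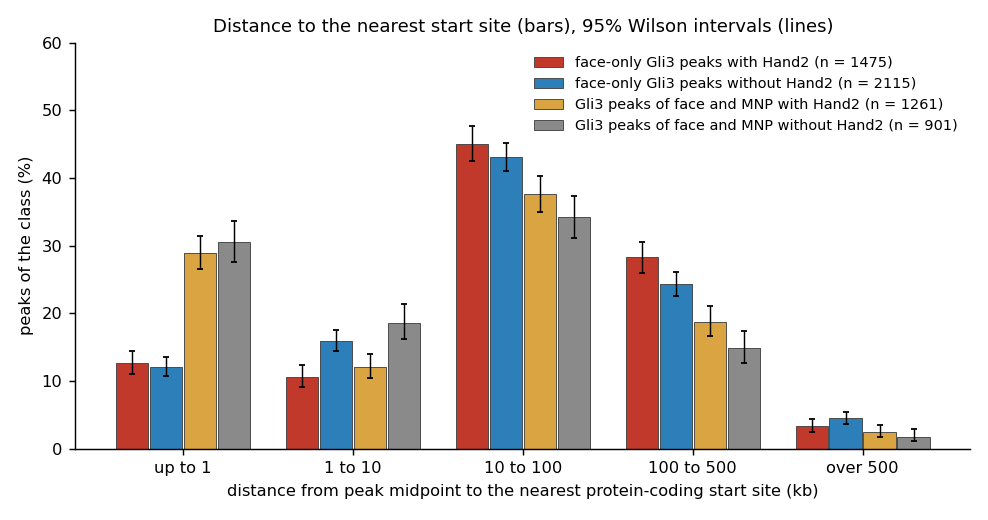
Share of the peaks of each class (y axis, %) by distance from the peak midpoint to the nearest protein-coding TSS (x axis, kb), with members first; bars are shares and lines 95% Wilson intervals. Within 1 kb, members stood at 12.7%, close to face-only peaks without Hand2 at 12.2% and below shared peaks with Hand2 at 28.9%.

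The cGBM was scarce in members. It was present in the middle 200 bp of 101 members (6.85%, interval 5.67 to 8.25%), compared to 478 face-only peaks without Hand2 (22.6%) and 203 shared peaks with Hand2 (16.1%). The differences were -15.8 points (interval -17.9 to -13.5) and -9.25 points (interval -11.7 to -6.87), with q = 4.4e-38 and q = 4.7e-13 (two-sided Fisher's exact test, Benjamini-Hochberg over 52 tests of 26 motifs in both comparisons). The difference from shared peaks depended on the numbers in the entry names of the list, described further on: its odds ratio of 0.383 became 0.696 (q = 0.028) with the log2 number as covariate and 0.976 (q = 0.94) above the median number. Against face-only peaks without Hand2 the odds ratio of 0.252 was 0.254 with that covariate. The members were not free of the motif: the share was 0.407% in 200 bp windows 2 kb to either side of them (12 of 2950), 0.582% in the middle of all Hand2 peaks and 0.807% in promoters from RefSeq (32851 sequences of 300 bp). These promoters are longer than the 200 bp windows, so their shares here and below are not directly comparable. The dGBM was present in 60 members (4.07%), compared to 121 face-only peaks without Hand2 (5.72%, q = 0.081) and 67 shared peaks with Hand2 (5.31%, q = 0.30). Its share was 0.542% in the flanks and 1.28% in RefSeq promoters. The dGBM difference from face-only peaks without Hand2 was on the lower side in every alternative and passed the threshold in 5 of 15, among them without promoter peaks (q = 0.042) and with the 200 bp window moved onto the motifs (4.47% of members and 6.57% of the others, q = 0.031). With repeats left out the shares were 3.46% and 3.92% (odds ratio 0.877, q = 0.72).

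The Hand-type E-box was frequent in members. CAGATG was present in 408 members (27.7%, interval 25.4 to 30.0%), 361 face-only peaks without Hand2 (17.1%) and 273 shared peaks with Hand2 (21.6%). The difference from face-only peaks without Hand2 was 10.6 points (interval 7.82 to 13.4, odds ratio 1.86, q = 7.5e-13). Among all Hand2 peaks the share was 28.2%, close to that of the members, while it was 15.4% in the flanks and 17.2% in the longer RefSeq promoters. The rule used the Hand2 list, so the difference from face-only peaks without Hand2 is not independent of how members were chosen. The difference from shared peaks with Hand2 was 6.01 points (interval 2.77 to 9.21, q = 0.0028). It did not pass the threshold without promoter peaks, where the shares were 30.8% and 27.6% (q = 0.26), and a logistic model with GC content and promoter status gave an odds ratio of 1.09 (q = 0.38). Median GC content of the middle 200 bp was 50% in members and 55.5% in shared peaks with Hand2, against 49.0% in face-only peaks without Hand2.

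**Figure D2:**
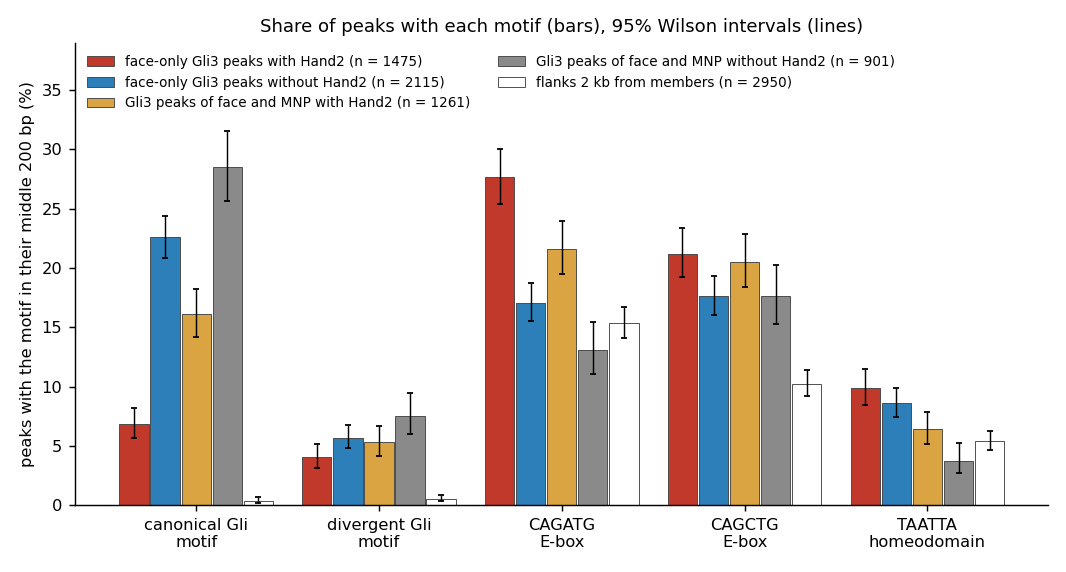
Share of peaks (y axis, %) with the cGBM, the dGBM, 2 E-boxes and TAATTA in their middle 200 bp, with members in the first bar of each set and sequence 2 kb from members in the last; lines are 95% Wilson intervals. Members had the lowest cGBM share of the 4 peak classes (6.85%) and the highest CAGATG share (27.7%).

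Of the 26 motifs searched, 4 were higher in members than in face-only peaks without Hand2 (15.4%) and 2 were lower (7.69%). Besides CAGATG, the higher motifs were the E-boxes CAGCTG (21.2% of members, 17.6% of the others, q = 0.030), CATATG (5.83%, 4.02%, q = 0.047) and CAAATG (14.1%, 11.3%, q = 0.044). In the flanks CAGCTG was at 10.2%, while CATATG at 5.42% and CAAATG at 13.4% were close to their shares in members. The E-boxes CACGTG, bound by Myc-type factors, and CACCTG, bound by Snail and Zeb factors, did not pass (q = 0.75 and q = 0.059). The lower motifs were the cGBM and the Pbx-Hox site TGATTNAT (1.83% of members, 3.74% of the others, q = 0.0057). Only 2 motifs were called in the middle 100 bp, in wide peaks or at or below the median entry number, and 3 above it. Against shared peaks with Hand2, 4 motifs were higher (15.4%) and 5 lower (19.2%). These 9 calls depended on the settings, with 4 motifs called without promoter peaks, 3 in the middle 100 bp, 5 at or below and 2 above the median entry number. Besides CAGATG, the words that were higher included the E-box CAAATG (14.1% of members, 8.64% of the others, q = 1.1e-04) and the homeodomain core TAATTA (9.90%, 6.42%, q = 0.0058). The other was the Gata site AGATAA (7.66%, 4.60%, q = 0.0058). In the flanks AGATAA was at 10.6%, above its share in members, and that difference was not tested. Against face-only peaks without Hand2, neither TAATTA (8.61% of the others, q = 0.36) nor AGATAA (8.37%, q = 0.64) passed the threshold. The lower ones were the cGBM, the short dGBM core CCTCC (58.8%, 65.3%, q = 0.0038), the AP-2 site GCCNNNGGC (10.3%, 14.4%, q = 0.0059), the Sp/Klf site GGGGCGGGG (2.85%, 5.95%, q = 9.1e-04) and the CTCF core AGGGGGCGC (0.542%, 1.59%, q = 0.030). For CCTCC the difference from face-only peaks without Hand2 did not pass (58.8% of members, 57.2% of the others, difference 1.62 points, interval -1.67 to 4.88, q = 0.56).

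A search of every 6-mer put parts of the E-box word and of the cGBM at the head of the lists. Of 2080 words, 27 were present in more members than face-only peaks without Hand2 (1.3%) and 17 in fewer (0.817%). The smallest p among the higher words belonged to CAGATG (q = 1.8e-11), followed by ATCTGG (19.4% of members, 11.6% of the others) and ACATCT (264 members, 223 of the others), and these 3 are all the 6-mers of the word ACATCTGG. That 8-mer was present in 87 members (5.90%) and in 35 face-only peaks without Hand2 (1.65%), with 1.08% in the flanks and 4.52% in all Hand2 peaks. The smallest p among the lower words belonged to GACCAC (20.9% of members, 40.8% of the others, q = 2.9e-33), CACCCA (30.3%, 51.2%), CCACCC (39.5%, 58.6%) and ACCACC (22.4%, 38.8%), which are the 4 words inside GACCACCCA. Against shared peaks with Hand2, 295 words were higher (14.2%) and 277 lower (13.3%). Of the higher words 259 had at most 2 G or C bases, as in ATTTTC (17.4% of members, 9.67% of the others) and AATTAA (15.9%, 8.80%). Of the lower words 222 contained CpG, as in CCGCCC (15.7%, 31.3%, q = 9.7e-19). The words thus split by base composition, and the part of composition in the calls was not tested further. Without promoter peaks there were 54 higher and 134 lower words.

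Allowing 1 substitution in the cGBM did not close the gap. GACCACCC or a form with 1 substitution was present in 623 members (42.2%), 1416 face-only peaks without Hand2 (67.0%) and 789 shared peaks with Hand2 (62.6%), with 12.1% in the flanks. Among peaks without the exact cGBM, a form with 1 substitution was present in 522 of 1374 members (38.0%) and 938 of 1637 face-only peaks without Hand2 (57.3%), a difference of -19.3 points (interval -22.8 to -15.8, Fisher's exact test, q = 1.0e-25 over 8 tests chosen after the motif counts were seen). The substituted forms with the highest share of members were A2G (GGCCACCC, 6.10% of members and 11.2% of face-only peaks without Hand2), A2C (GCCCACCC, 5.69% and 8.18%), C7A (GACCACAC, 4.88% and 8.27%) and A5T (GACCTCCC, given above). Among peaks with either the cGBM or the dGBM but not both, the dGBM made up 59 of 159 members (37.1%), 114 of 585 face-only peaks without Hand2 (19.5%) and 65 of 266 shared peaks with Hand2 (24.4%), with q = 9.8e-06 and q = 0.0068. The share of all members with the dGBM was not higher than in either other class, so the members' larger dGBM fraction stood beside their low cGBM share. A cGBM, a dGBM or CAGATG was present in 529 members (35.9%), and the rest had none of these exact words. The share was 40.4% in face-only peaks without Hand2, 37.7% in shared peaks with Hand2 and 44.0% in shared peaks without Hand2. These differences were not tested.

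The difference that goes with Hand2 was set against the same difference among Gli3 peaks shared by face and MNP, where 203 of 1261 peaks with Hand2 (16.1%) and 257 of 901 without Hand2 (28.5%) held a cGBM. The odds ratio of the cGBM with Hand2 to without was 0.252 among face-only peaks and 0.481 among shared peaks. Their ratio was 0.524 (interval 0.385 to 0.712, logistic model with an interaction term, q = 1.1e-04 over 3 motifs). For CAGATG the odds ratios were 1.86 and 1.83, with a ratio of 1.01 (interval 0.762 to 1.35, q = 0.95), and for the dGBM they were 0.699 and 0.687 (ratio 1.02, interval 0.635 to 1.63, q = 0.95). The E-box thus went with Hand2 to a like degree in both settings within these intervals, while the cGBM deficit was larger on the odds scale among face-only peaks. Whether that held within bins of entry number was not tested.

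Where a cGBM was present in a member, it was more concentrated around the Gli3 midpoint than around the Hand2 midpoint. Within 300 bp of the Gli3 midpoints of members there were 129 cGBMs, of which 62 were within 50 bp and 8 beyond 200 bp. Per 100 bp of sequence this is 15.3 times as many in the inner as in the outer stretch. The same ratio was 60.2 in face-only peaks without Hand2 and 18.6 in shared peaks with Hand2, so that of the members was the lowest of these 3 classes, a difference that was not tested. The outer stretch held only 10 and 13 sites in those classes. Around the Hand2 midpoints of the same members, 21 cGBMs were within 50 bp and 22 beyond 200 bp, a ratio of 1.89 per 100 bp. The Gli3 and Hand2 midpoints were a median of 100 bp apart, so sites centred on one are spread around the other. The contrast between them is therefore a description. CAGATG was less sharply placed, with ratios of 1.66 around the Gli3 midpoints and 1.74 around the Hand2 midpoints of members and 1.45 around the Gli3 midpoints of face-only peaks without Hand2. The cGBM also lay to one side: its median offset from the midpoint was 36 bp in members and 40 bp in face-only peaks without Hand2, towards higher coordinates, with 72.8% and 79.5% of the sites on that side. In the whole face list the offset was 38 bp, and in the Gli3 MNP list it was -1 bp. CAGATG was offset by 23 bp in members and by 0 bp in the Hand2 list. The face list was thus placed to the left of its motifs, and the reason was not tested. Moving the 200 bp window by the offset gave cGBM shares of 7.32% in members and 24.5% in face-only peaks without Hand2, and moving the peaks too changed the number of members to 1474.

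**Figure D3:**
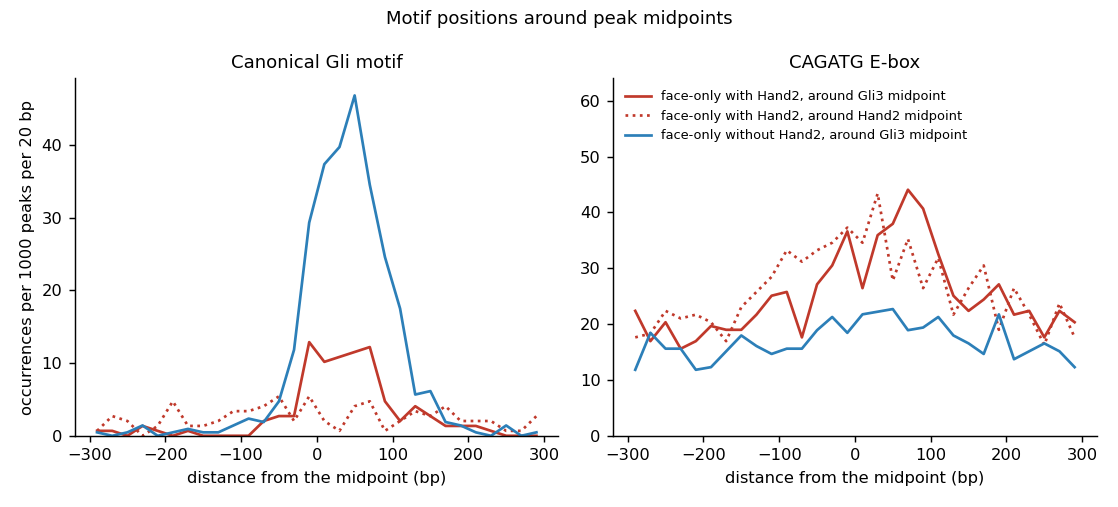
Occurrences of the cGBM (left) and of CAGATG (right) per 1000 peaks in bins of 20 bp (y axis) by distance from the peak midpoint (x axis, bp), for members around their Gli3 midpoints (solid red) and Hand2 midpoints (dotted red) and for face-only peaks without Hand2 (blue). The cGBM of members was 15.3 times as dense near as far from the Gli3 midpoint and 1.89 times for the Hand2 midpoint, while CAGATG had ratios of 1.66 and 1.74. These midpoints were a median of 100 bp apart, and the contrast is a description.

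Members varied among themselves in their motifs. Of 1475 members, 25 (1.69%) held both the cGBM and CAGATG, 76 (5.15%) the cGBM alone, 383 (26.0%) CAGATG alone and 991 (67.2%) neither. Peaks with neither made up 64.1% of face-only peaks without Hand2 and 66.2% of shared peaks with Hand2. CAGATG was present in 25 of the 101 members with a cGBM (24.8%) and in 383 of the 1374 without (27.9%), a difference of -3.12 points (interval -10.9 to 6.40, Fisher's exact test, q = 0.56 over 4 tests chosen after the motif counts were seen). The E-box was rare in promoter members, where it was present in 11 of 187 (5.88%), compared to 397 of 1288 other members (30.8%), a difference of -24.9 points (interval -28.6 to -19.9, q = 8.6e-15). Their median GC content was 65.5%, compared to 49.0% in the other members, and its part in that difference was not tested. The cGBM was present in 8 promoter members (4.28%) and 93 other members (7.22%, q = 0.33). As a description, since overlap chose the members, 53.5% of the members with a cGBM and 85.0% of those with CAGATG lay wholly inside a Hand2 peak, and their midpoints were a median of 116 bp and 81.5 bp from the Hand2 midpoint. At least 2 copies of CAGATG were present in 58 members (3.93%) and at least 3 in 5. CAGATG and TAATTA occurred together in 36 members, and TAATTA was present in 8.82% of members with CAGATG and 10.3% of those without (q = 0.56). Within 20 bp of each other the E-box and the homeodomain core stood in 10 pairs with CATCTG ahead of TAATTA and 9 pairs with CAGATG ahead of it in members. In 2115 face-only peaks without Hand2 there were 2 and 3 such pairs, in 1261 shared peaks with Hand2 3 and 2, and in 901 shared peaks without Hand2 2 and 0. These counts were not tested.

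Each entry of the whole face list carries the numbers of 4 calls, with mock and input as control in each replicate, and all 5752 entries hold all 4. The numbers behave like ranks within a call, but no source used here states what they rank. Their mean over the 4 calls had a median of 4357 in members, 4790 in face-only peaks without Hand2 and 1466 in shared peaks with Hand2. When the list was divided into 5 bins of nearly equal size by this mean, members made up 70 of 1151 peaks (6.08%) and peaks shared with the Gli3 MNP list 987 (85.8%) of the bin with the lowest numbers. In the next 4 bins the members' share was 24.3%, 29.7%, 36.3% and 31.8%. The cGBM share of members was 6.75%, 8.08% and 5.75% over 3 bins from the lowest to the highest numbers, and that of face-only peaks without Hand2 was 19.5%, 22.0% and 23.8%. In shared peaks with Hand2 it was 19.8%, 9.30% and 6.25%. Above the median number, members and shared peaks with Hand2 had nearly the same cGBM share (6.60% of 969 and 6.76% of 222, odds ratio 0.976, q = 0.94), so the difference from shared peaks was not seen there. The difference from face-only peaks without Hand2 passed the threshold on both sides of the median. CAGATG in members was at 23.6%, 28.8% and 28.1% over the same 3 bins.

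**Figure D4:**
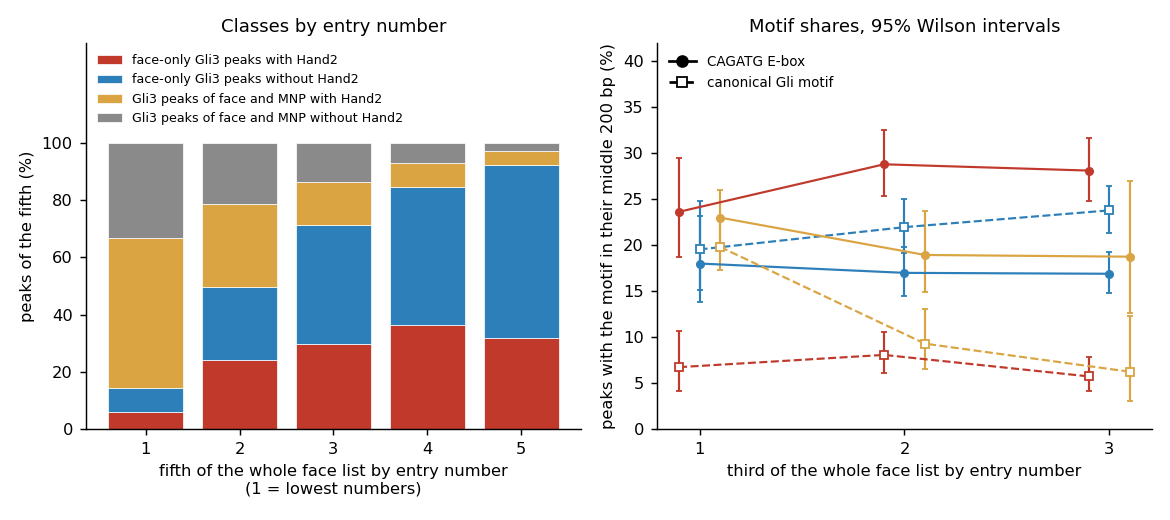
Left, share of each class (y axis, %) in 5 nearly equal bins of the whole face list by the mean number of its entries (x axis), with members at the bottom of the bars. Right, share of peaks (y axis, %) with CAGATG (circles) and the cGBM (squares) in 3 bins of the list (x axis), colours as on the left and lines showing 95% Wilson intervals; the cGBM share of members stayed between 5.75% and 8.08%, while that of shared peaks with Hand2 ran from 19.8% to 6.25%.

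Genes were counted as next to a member where they own the first protein-coding TSS on either side of it. This held for 2138 of 21924 protein-coding genes (9.75%). By the same rule 3154 of the 21924 genes were next to a face-only peak without Hand2 and 1913 to a shared peak with Hand2. The counts below for these classes stand beside those totals. Genes with long stretches around them collect more peaks: the 2 stretches beside a gene had a median length of 95.1 kb over all genes and of 310.7 kb over the 26 mandibular patterning genes. Over the gene lists the median ran from 77.5 kb for liver to 631.4 kb for upper face regulators. The part of this length in the counts below was not tested. Of the mandibular patterning genes 16 were next to a member (61.5%), among them *Ednra*, the endothelin receptor upstream of *Hand2*, *Hand2* itself, *Dlx6*, *Msx1*, *Barx1*, *Twist1* and *Isl1*; 17 were next to a face-only peak without Hand2 and 13 to a shared peak with Hand2. Of the genes known to respond to Hedgehog in the face 13 of 20 were next to a member, including the forkhead genes *Foxf1*, *Foxf2*, *Foxd1*, *Foxc1* and *Foxl1*, the cell cycle genes *Ccnd1* and *Ccnd2* and the proliferation regulator *Mycn*. Of the 20 Hedgehog pathway genes 8 were: the receptor *Ptch1*, its coreceptors *Boc*, *Cdon* and *Gas1*, the inhibitor *Hhip*, the acyltransferase *Hhat*, which modifies the ligand, and *Gli2* and *Gli3*. Upper face regulators were next to a member in 11 of 24 cases (45.8%), signalling ligands in 10 of 24 (41.7%), cartilage genes in 8 of 17 (47.1%), bone genes in 6 of 16 (37.5%) and skeletal muscle genes in 6 of 20 (30.0%). Of the upper face regulators and of the ligands, 15 each were next to a face-only peak without Hand2, and 10 each were next to a shared peak with Hand2. For the Hedgehog-responsive genes these counts were 12 and 14, and for the Hedgehog pathway 6 and 6. They were 7 and 6 for cartilage, 5 and 4 for bone and 5 and 4 for skeletal muscle. Genes of other cell types that facial tissue can hold were next to a member in 5 of 15 cases for blood and endothelium (33.3%), 3 of 17 for neurons (17.6%) and 2 of 14 for epithelium (14.3%). For the liver, a tissue not sampled, it was 1 of 13 (7.69%). Beside face-only peaks without Hand2 the counts for blood and endothelium, neurons, epithelium and liver were 7, 3, 3 and 0. Beside shared peaks with Hand2 they were 1, 0, 1 and 1. With each member given to the single nearest TSS within 100 kb, 871 genes remained (3.97%), with 10 of the 26 mandibular patterning genes, 6 of the 20 Hedgehog-responsive genes and 5 of the 20 Hedgehog pathway genes. The other lists then had 4 upper face regulators, 4 cartilage, 5 bone and 3 skeletal muscle genes, 2 signalling ligands, 2 genes of blood and endothelium, and 1 each for neurons, epithelium and liver.

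Several members sat at the promoters of TFs that pattern the jaw. A member 61 bp from the TSS of *Tbx3* covered its 5′ region at chr5:119670623-119670836, wholly inside a Hand2 peak and with none of the cGBM, dGBM or CAGATG in its middle 200 bp. *Tbx3* had 6 members next to it and 7 face-only peaks without Hand2. The member at *Prrx1*, a homeodomain TF of craniofacial and limb mesenchyme, lay 197 bp from its TSS (chr1:163313402-163313624) and held a TAATTA. The member at *Gsc*, a homeodomain TF of the jaw and middle ear mesenchyme, lay 237 bp from its TSS (chr12:104473401-104473732), and 3 members but no face-only peak without Hand2 were next to that gene. Farther from its gene, a member 9982 bp from the TSS of *Msx1* (chr5:37834452-37834678) held 1 cGBM, and a member 12985 bp from the TSS of *Hand2* (chr8:57333864-57334071) held 1 dGBM. At some of these promoters a Gli3 peak of the MNP list lay close by without touching the member: the nearest Gli3 MNP peak was 97 bp from the member at *Prrx1*, 1129 bp from that at *Tbx3* and 2034 bp from that at *Gsc*. *Msx1*, a homeodomain TF of the distal jaw and the teeth, had 4 members next to it, 2 shared peaks with Hand2 and no face-only peak without Hand2.

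At regulators of the upper face, a member lay 91 bp from the TSS of *Six2* (chr17:85688262-85688467), a Six-family homeodomain TF, and the closest to *Alx4*, a frontonasal regulator, was 47944 bp away in an intron of *Ext2*. The closest member to *Tbx2*, a T-box TF, lay at 2331 bp with a GC content of 76.0%. Those closest to *Foxf1* and *Foxf2*, forkhead genes induced by Hedgehog in mesenchyme, were at 4537 and 6707 bp, and neither held a cGBM, dGBM or CAGATG. *Foxf1* had 3 members and 5 shared peaks with Hand2 next to it. Of the genes singled out in the study, *Foxd1* had 2 members next to it, the closer at 39169 bp (chr13:98393309-98393512, intergenic, without any of the 3 words). A Gli3 MNP peak lay 1656 bp from this closer member. *Maf* had 2 members, the closer at 440462 bp in an intron of *Wwox* with 1 CAGATG, and *Ptch1* had 1, at 127761 bp, also with 1 CAGATG. *Plagl1* and *Myh6* had none. Among pathway genes, members lay in introns of *Cdon* (14660 bp from its TSS) and *Gli2* (19727 bp, with 1 CAGATG), and 18784 bp from the TSS of *Hhat* with 1 CAGATG.

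**Figure D5:**
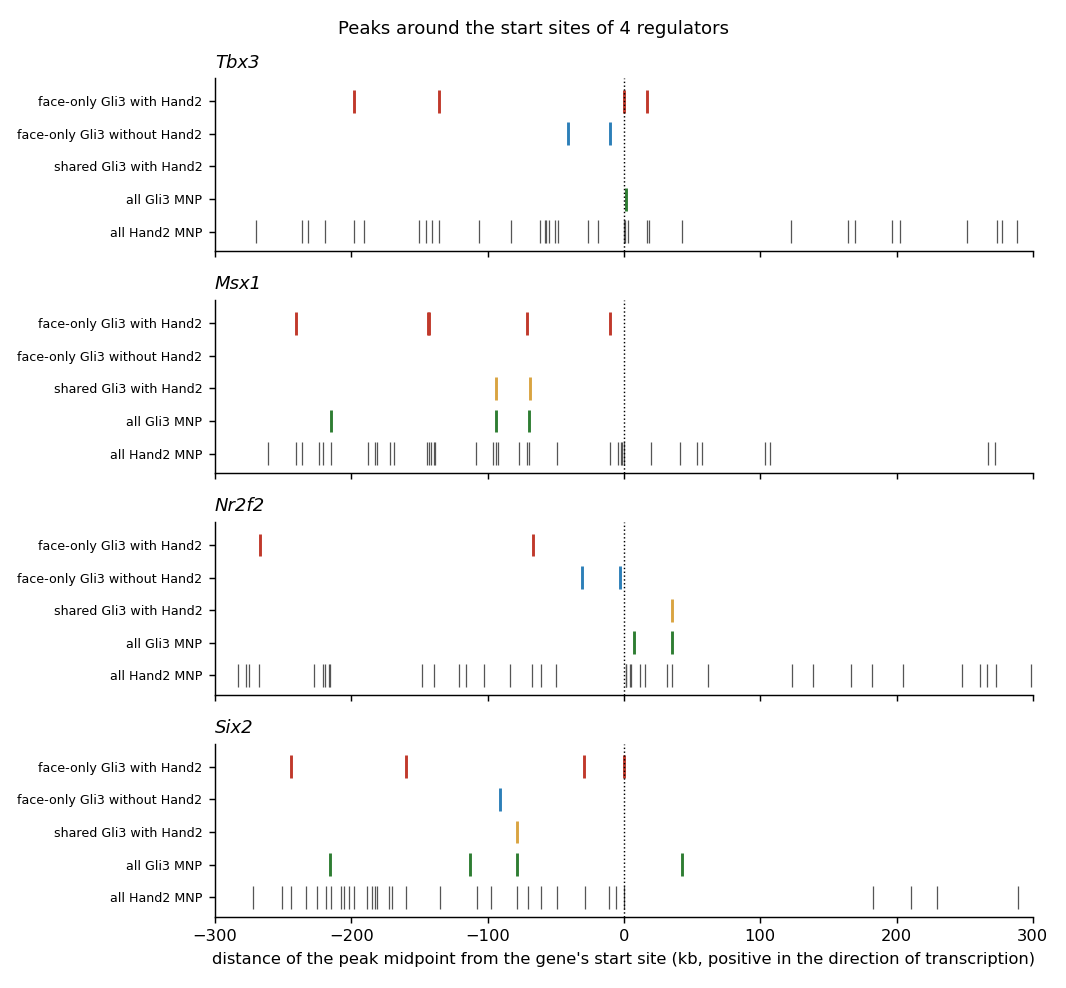
Peak midpoints around the TSS of *Tbx3*, *Msx1*, *Nr2f2* and *Six2*, the 4 mandibular or upper face regulators with most members next to them (x axis, distance from the TSS in kb, positive in the direction of transcription); rows are members, face-only peaks without Hand2, shared peaks with Hand2, all Gli3 MNP peaks and all Hand2 MNP peaks. Within 300 kb there were 4 members at *Tbx3*, 5 at *Msx1*, 2 at *Nr2f2* and 4 at *Six2*, each under a Hand2 peak, among 33 to 37 Hand2 peaks per gene.

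At differentiation genes, members were found at *Wwp2* (72 bp from its TSS), a ubiquitin ligase gene expressed in cartilage, in an intron of the cartilage collagen gene *Col9a1* (18612 bp) and in an intron of *Sox5*, a cartilage TF gene, at 58179 bp with 1 dGBM. Hand2 covered 17.3% of the member at *Wwp2*. The closest member to *Runx2*, the master TF of osteoblasts, was at 5208 bp (chr17:44819897-44820113), and those closest to the bone collagen genes *Col1a1* and *Col1a2* were at 7166 and 20392 bp. In the muscle list, members lay 187 bp from the TSS of *Mef2d*, a MADS-box TF gene, and 3214 bp from that of the skeletal actin gene *Acta1*. A Gli3 MNP peak lay 70 bp from the member at *Mef2d*. Among ligands, *Bmp7* had a member in its own intron 6367 bp from its TSS, while the closest to *Tgfb3* and *Wnt5b* were at 84535 and 91663 bp. Members also lay close to genes of other cell types: 265 bp from the TSS of *Fli1*, an endothelial and blood TF, with 1 CAGATG, 6822 bp from that of the endothelial adhesion gene *Pecam1*, 3892 bp from that of the neuronal growth cone gene *Gap43* and 26070 bp from that of the epithelial cadherin gene *Cdh1*. A Gli3 MNP peak lay 821 bp from the member at *Fli1*. The other genes that the rule names from these lists were farther away, at 43559 bp for the neurogenic TF gene *Neurog1*, 129164 bp for the neuronal tubulin gene *Tubb3*, 168351 bp for the endothelial cadherin gene *Cdh5*, 179531 bp for the epithelial TF gene *Grhl2* and 219528 bp for the keratin gene *Krt18*. The closest members to the liver genes *Apoa2*, *Ttr* and *Afp* lay at 31212, 33521 and 165312 bp.

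Of the stretches between neighbouring protein-coding TSSs, 924 held 1 member, 159 held 2, 32 held 3, 16 held 4 and 9 held 5. The highest counts, 8 members each, were between *Gse1* and *Gins2* (chromosome 8) and between *Rps24* and *Zmiz1* (chromosome 14). The 8 members beside *Gse1* all lay in its introns (and those of the overlapping gene model *Gm20388*), 3 of them with CAGATG and none with a cGBM, next to 3 face-only peaks without Hand2 and 3 shared peaks with Hand2. The 8 members between *Rps24* and *Zmiz1*, a stretch of 972 kb, were intergenic, 3 with CAGATG, 1 with a dGBM and none with a cGBM. The 6 members between *Slc38a6* and *Tmem30b* (chromosome 12) included 3 with CAGATG and 1 with a dGBM. A further 6 members lay between *Gas8* and *Rhou* on chromosome 8, beside 37 shared peaks with Hand2, in sequence that was on average 77.5% repeat, and with none of the 3 words. How uniquely reads map there was not tested. Leaving that stretch out kept the calls of the cGBM, the dGBM, CAGATG and the promoter share, while the motifs called against shared peaks with Hand2 numbered 10 and the 6-mers 493 (250 higher, 243 lower). *Trabd2b* to *Gm12830* (chromosome 4) was the first by position of 9 stretches with 5 members, and it included the member that shared 5 bp with its Hand2 peak.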

How the data were processed

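Chromatin of pooled CD1 embryonic tissue, fixed in 1% formaldehyde for 20 min, was precipitated with anti-FLAG M2 (6 samples, 2 replicates in each of 3 groups) and sequenced as 75 bp reads. Per the labels and the study's methods, the authors mapped reads to mm10 (GRCm38) with BWA and merged replicate peaks with bedtools; HOMER is named in the submitters' processing notes without a version, and no source used here names the peak caller of these lists. The deposited lists hold other values than counts, namely peak start and end positions, so depth is unknown and replicates could not be compared.

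Members and lists were chosen with earlier results of these data known. Sharing 1 bp counted as overlap. Exact motif matches on either strand were counted in the middle 200 bp of each peak (mm10), in windows 2 kb away and in RefSeq promoters of GRCm38; TSSs are protein-coding. Shares were compared by two-sided Fisher's exact tests with Benjamini-Hochberg adjustment and a threshold of 0.05, over 52 motif tests, 2080 6-mers per comparison, 8 added tests and 4 tests within members. Interactions came from logistic models. Scripts, tested on simulated data, used Python 3.11.15, numpy 2.4.6, scipy 1.17.1, statsmodels 0.14.6 and matplotlib 3.10.9. Of 222 listed genes 221 matched. Named were the 3 genes of each list closest to a member, counted as near only within 500 kb, the 5 stretches with most members, *Foxd1*, *Plagl1*, *Myh6*, *Maf* and *Ptch1*, and the 6-mers with the smallest p; *Msx1*, the *Hand2* gene, *Nr2f2* and the genes given as next to a member were named after their values were seen. Sequences were taken by smallest gap, passing over chromosome 18 and UTR windows. Some results that the rules name are not reported here. Alternatives changed the overlap, window, promoter distance, repeats, peak width, entry number and covariates.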

Additional observations from a re-analysis of the deposited data

Results flagged for a closer look

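The deficit of the cGBM GACCACCC in Gli3 peaks with Hand2 differed between face-only peaks and peaks of face and MNP, as tested by an interaction term. The odds ratio with Hand2 to without was 0.252 among face-only peaks (members against face-only peaks without Hand2) and 0.481 among shared peaks, and the ratio of these odds ratios was 0.524 (interval 0.385 to 0.712, q = 1.1e-04). In percentage points the differences were -15.8 and -12.4. Whether the interaction held within bins of entry number was not tested.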

How the results depend on the processing

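Values here are odds ratios of members to the other class, or numbers of motifs or words called. Against face-only peaks without Hand2, the CAGATG excess (1.59 to 2.09) and the cGBM deficit (0.230 to 0.309) kept their direction and passed the threshold in all 15 alternatives, as did the promoter deficit against shared peaks with Hand2 in all 10 (0.228 to 0.396). None of these differences is independent of how members were chosen. The ratio of odds ratios for the cGBM stayed between 0.522 and 0.545 in 4 alternatives. Entry number was a covariate in 1 of them, and none divided the peaks by it. Over 3 bins of that number the cGBM share fell from 19.8% to 6.25% in shared peaks with Hand2. In face-only peaks without Hand2 it rose from 19.5% to 23.8%. The cause of the following changes was not tested. The promoter comparison with face-only peaks without Hand2 changed direction at 5 kb (0.836), with 50% coverage (0.783), with Hand2 at the midpoint (0.777), without Gli3 MNP peaks within 1 kb (0.966) and for entry numbers at or below the median (0.976). The dGBM against face-only peaks without Hand2 passed the threshold without promoter peaks (0.622), with the window moved (0.666), with peaks and window moved (0.667), with GC content and promoter status (0.697) and with entry number as covariate (0.699). Its highest odds ratio was 0.877, with repeats left out, and did not pass. Against shared peaks with Hand2, CAGATG did not pass in the middle 100 bp (1.18), without promoter peaks (1.17), at or below the median entry number (1.18) or with GC content and promoter status (1.09), and the cGBM did not pass above the median entry number (0.976). The CAGATG ratio of odds ratios changed side of 1 over whole peaks (0.984) and with the window moved (0.984).

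Motifs called against face-only peaks without Hand2 numbered 2 in the middle 100 bp, 2 in wide peaks, 2 at or below and 3 above the median entry number, and against shared peaks with Hand2 3 in the middle 100 bp, 4 without promoter peaks, 5 at or below and 2 above that median. Words called against face-only peaks without Hand2 numbered 17 in the middle 100 bp, 13 in wide peaks, 4 at or below the median entry number and 22 as 8-mers. Against shared peaks with Hand2 they numbered 264 in the middle 100 bp, 188 without promoter peaks, 286 in wide peaks, 229 at or below and 188 above the median entry number and 211 as 8-mers. Moving the window or peaks, the entry number alternatives and leaving out the *Gas8* to *Rhou* stretch were chosen after seeing the data. Restricting peaks by merged calls was not run, since all 5752 entries hold all 4. No paired analysis was possible because each list merges both replicates, and for the same reason no replicate could be left out.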

Other observations

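Among 191 occurrences of GACC, any base, CCC in the middle 200 bp of members, the free base was A in 101, T in 60, C in 17 and G in 13. In the windows 2 kb from members the same count was 12 with A, 16 with T, 12 with C and 4 with G. Members near genes outside the mandibular lists also held the cGBM: the member next to the growth factor gene *Fgf10* (chr13:118791324-118791550), in its UTR, and the one next to the endothelial gene *Emcn* (chr3:137552263-137552534) each held 1, with 41.0% and 20.6% of their length under a Hand2 peak.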
